A study of Mus musculus with 18 samples.

Results

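The cytosolic ribosomal protein genes were taken from the mouse gene annotation GENCODE vM21 (assembly GRCm38, which mm10 names) as the protein-coding genes whose symbol starts with Rpl or Rps and a digit, or is Rpsa, without the Rps6k kinases. This rule, which uses no measured value, gave 89 of 21938 protein-coding genes. They comprised 43 genes of the large (60S) subunit and 31 of the small (40S) subunit, together called the 74 core genes here, and 8 paralogs, 6 copies whose symbols end in -ps and a number (the mark of a pseudogene) but which the annotation lists as protein-coding, and Rps19bp1, which encodes a nucleolar protein that binds Rps19 and is not a ribosome component. The rule leaves out 6 further ribosomal protein genes with other symbols, which are given beside the members below.

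The study profiled 2 histone modifications by chromatin immunoprecipitation and sequencing (ChIP-seq) in bone marrow of adult C57BL6 mice, male by the study's methods and with no genetic change or treatment named in the labels. Erythroblasts (ERY) were sorted as Ter119+, CD44+ cells of low forward scatter, and immature megakaryocytes (iMK) as Ter119-, Sca1-, CD41+, CD61+, cKit- cells. Both sorts left out cells with CD4, CD8, IL7Ra, CD11b, Ly6g or CD45R. Each mark had 2 libraries per cell type, 8 in all, and the 10 inputs (4 of ERY, 6 of iMK) were not analysed here. The measure is a list of peaks for each library, the stretches of the genome that the authors called as enriched. Replicate numbers 1 and 2 only follow the order of the labels, which do not say whether they came from separate animals, so the p-values measure only the spread between these libraries. Read depth cannot be had from peak lists.

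Ribosomal proteins are made in every growing cell, and an erythroblast that fills itself with globin depends on a large supply of ribosomes. Loss of 1 copy of any of several ribosomal protein genes causes Diamond-Blackfan anaemia in people, a failure of red cell production. H3K4me3, trimethylation of lysine 4 of histone H3, marks the start of active and poised genes, and H3K27ac, acetylation of lysine 27, marks active promoters and enhancers. Mammalian ribosomal protein genes are mostly short, spread over the genome, and begin their transcripts with a C inside a run of pyrimidines (C and T), the 5′ terminal oligopyrimidine tract through which mTOR signalling controls their translation.

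Start sites of the members were matched to the promoter table of RefSeq (GRCm38.p6), which held 64 of the 89 members and 55 of the 74 core genes. The start site that RefSeq gives lay within 100 bases of the main GENCODE start site in 44 of the 55. The sequences printed are 60 bases before the RefSeq start and 20 from it on, read 5′ to 3′ on the strand of the gene. The first set shows pyrimidine runs near the start at 7 core genes on autosomes, among them Rps6, the target of the S6 kinases, and Rpl14 and Rps15a, whose peaks are described further on. Capitals mark the longest run of C and T that overlaps the stretch from 10 bases before to 20 bases after the start. The run in capitals takes in the start in 6 of the 7, while in Rps15a it ends before the start, and the shorter run at the start itself is in lower case.
Rps6: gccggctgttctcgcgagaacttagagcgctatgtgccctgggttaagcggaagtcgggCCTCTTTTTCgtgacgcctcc
Rps10: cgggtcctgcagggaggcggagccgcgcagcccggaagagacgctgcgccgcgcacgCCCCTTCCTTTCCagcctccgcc
Rps15a: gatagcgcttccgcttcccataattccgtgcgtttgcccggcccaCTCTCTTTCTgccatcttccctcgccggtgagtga
Rpl14: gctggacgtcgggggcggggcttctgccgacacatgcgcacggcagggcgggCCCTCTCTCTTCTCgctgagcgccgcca
Rpl15: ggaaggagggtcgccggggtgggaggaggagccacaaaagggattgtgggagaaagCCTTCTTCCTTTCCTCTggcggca
Rpl35: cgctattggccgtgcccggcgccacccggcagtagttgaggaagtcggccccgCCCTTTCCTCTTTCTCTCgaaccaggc
Rpl38: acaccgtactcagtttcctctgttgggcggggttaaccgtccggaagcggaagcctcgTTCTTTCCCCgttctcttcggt
Such runs were common. A run of 8 or more pyrimidines was found at 26 of the 55 core starts (47.3%), against 16.3% of the 16521 protein-coding genes in the table, and one of 12 or more at 11 (20%), against 4.3%. A C at the start followed by 4 pyrimidines occurred at 11 of 55 (20%), against 2.18% of all. The median longest run was 7 bases in the core genes and 5 in all genes.

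In the 300 bases from 250 before to 50 after the start, both strands searched, CCGGAAG (the core of sites for ETS factors) was present at 21 of 55 core genes (38.2%), against 12.4% of all genes. CTCGCGAG was present at 7 (12.7%), against 1.3%. The letters TATAAA, those of a TATA box, were found anywhere in the window at 4 (7.27%), against 12.9%, and AAGATGGC, the core of sites for YY1, at 4 (7.27%), against 3.28%. GGGCGG was present at 58.2% against 48.5% and CCAAT at 30.9% against 38.6%. None of these motifs contains another. These matches describe the letters only, and the windows differ in base content from gene to gene.

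Peaks of both marks were called at every core gene in at least 1 library. For each gene, the promoter was the 1 kb on each side of any annotated transcription start site (TSS), and a library called it when a peak touched it. A promoter was shared when both libraries of both cell types called it, ERY-only or iMK-only when both libraries of 1 cell type and none of the other did, and unreplicated in all other mixtures. For H3K27ac, 77 of the 89 members (86.5%) were shared, against 36% of all protein-coding genes. No member was ERY-only (2.17% of all genes), 1 was iMK-only (Rps4x; 8.56% of all genes), 1 was unreplicated (Rpl36a) and 10 had no call in any library (11.2%, against 47.2% of all genes). For H3K4me3, 61 members (68.5%) were shared, against 24.6% of all genes. None was ERY-only (0.378% of all genes) or iMK-only (4.89% of all genes), 18 (20.2%) were unreplicated and the same number, 10 (11.2%), had no call, against 46.3% of all genes. Over the 74 core genes, 72 were shared for H3K27ac and 56 for H3K4me3, and 56 were called in all 8 libraries. The 60S and 40S genes were alike in this, with 42 of 43 and 30 of 31 shared for H3K27ac and 32 of 43 and 24 of 31 for H3K4me3.

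**Figure D1:**
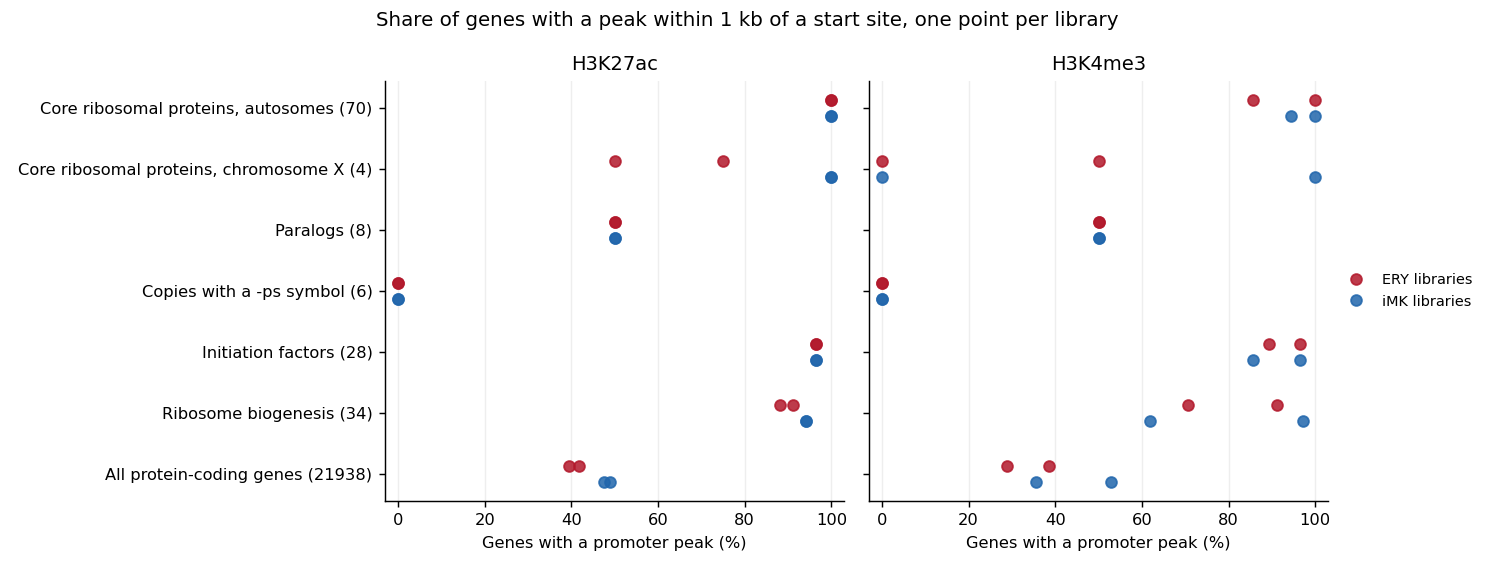
Share of genes in each list (number in brackets) with a promoter peak, for H3K27ac (left) and H3K4me3 (right), one point per library, with ERY drawn above iMK. All 70 autosomal core genes have H3K27ac in all 4 libraries, and the copies with a -ps symbol have neither mark. The 4 core genes of chromosome X have lower shares than the autosomal ones in the ERY libraries of both marks and in iMK replicate 1 of H3K4me3. In the remaining iMK libraries both stand at 100%.

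By library, H3K27ac was called at 78 and 77 members in the ERY libraries and at 79 in both iMK libraries. Over all genes it was called at 41.7% and 39.4% in ERY and at 47.6% and 49% in iMK. H3K4me3 was called at 77 and 65 members in ERY and at 71 and 79 in iMK. Its shares over all genes ran in the same order, 38.6% and 28.8% in ERY and 35.5% and 52.8% in iMK. Some of these libraries stood apart in length: ERY replicate 2 listed 6275 H3K4me3 peaks and iMK replicate 2 listed 13222, with 8841 and 7578 in their partners. H3K27ac lists held 25750 and 21768 peaks in ERY and 22931 and 24781 in iMK. The missing H3K4me3 calls followed these lengths: ERY replicate 2 lacked a call at 14 core genes and iMK replicate 1 at 8, while ERY replicate 1 lacked it at 2 and iMK replicate 2 at none. Without ERY replicate 1, 10 of the 89 members counted as H3K4me3 iMK-only, against 10.7% of all genes, and without iMK replicate 2, 4 counted as ERY-only, against 4.03% of all genes. The part of list length in the missing calls was not tested. The 10 autosomal genes missed in ERY replicate 2 (among them Rpl6, Rpl12, Rpl37 and Rps26) and the 4 missed in iMK replicate 1 (Rpl24, Rpl26, Rpl27 and Rpl37a) had no gene in common. At the 18 core genes with a missing H3K4me3 call, H3K27ac was still called at 17 and 16 in ERY and at 18 in both iMK libraries. Its median width there was 2600 bp in both ERY libraries and 1600 and 2000 bp in iMK. At the 56 with H3K4me3 in every library it was 2900 and 2800 bp in ERY and 2000 and 2400 bp in iMK.

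The cell labels were checked with marker genes. All 9 erythroblast markers had H3K27ac promoter calls in both ERY libraries and 2 of 9 (Tfrc and Klf1) in the iMK libraries. Of 8 megakaryocyte markers, 4 were called in both ERY libraries and 2 and 3 in the iMK libraries. Itga2b, which encodes the CD41 of the sort, had no H3K27ac peak in iMK, and Pf4 had none in any library, while Itgb3 and Fli1 were iMK-only. Of 8 myeloid markers, 6 and 7 were called in the iMK libraries and none in ERY, and of 6 lymphoid markers 0 and 1 in iMK and none in ERY. For H3K4me3, none of the megakaryocyte markers was called in ERY and 2 and 4 of the 8 were in iMK, and none of the myeloid markers was called in ERY and 4 and 7 of the 8 were in iMK. The H3K27ac calls at megakaryocyte markers thus go partly against the iMK label and the H3K4me3 calls go with it, while both marks were called at myeloid markers, and iMK below means the libraries that carry it. The part of myeloid cells in the differences between ERY and iMK was not tested.

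The only core genes without a shared H3K27ac promoter were on chromosome X. The core genes lay on 19 chromosomes, with 13 genes on chromosome 7. All 70 autosomal ones were shared for H3K27ac, and 56 of 70 (80%) for H3K4me3. The core genes of chromosome X are Rps4x of the 40S subunit and Rpl10, Rpl36a and Rpl39 of the 60S subunit, where Rpl10 joins late and helps release the finished subunit and Rpl39 lines the tunnel of the nascent chain. Their H3K27ac calls numbered 3 and 2 in ERY and 4 in both iMK libraries, and their H3K4me3 calls 2 and 0 in ERY and 0 and 4 in iMK. Rps4x had no H3K27ac peak in either ERY library and one of 600 bp in each iMK library, and its only H3K4me3 peak, 1600 bp, was in iMK replicate 2. Rpl36a had an H3K27ac peak of 1800 bp in ERY replicate 1 and none in ERY replicate 2, against 1600 and 1000 bp in iMK. Its only H3K4me3 peak, 2000 bp, was again in iMK replicate 2. Rpl10 had H3K27ac peaks of 2600 and 1200 bp in ERY and 3600 and 4400 bp in iMK. Both iMK widths thus exceeded both ERY widths, as at 13.1% of all genes called in all 4 libraries. Rpl39 had 2800 and 3400 bp in ERY, against 1600 and 2400 bp in iMK. There both ERY widths exceeded both iMK widths, as at 49.2% of all such genes. For H3K4me3, Rpl10 had 600 bp in ERY replicate 1 and 3000 bp in iMK replicate 2, Rpl39 had 1200 bp and 1800 bp in the same libraries, and neither had a call in the other libraries.

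Few genes of chromosome X had shared calls at all. Of its 948 protein-coding genes, 4 (0.422%) were shared for H3K4me3, against 25.9% of autosomal genes, and 177 (18.7%) for H3K27ac, against 37.1%. H3K4me3 was called at 18% and 2.95% of them in ERY and at 3.59% and 32.6% in iMK, the order of the list lengths. Male cells carry a single X chromosome, and the part of copy number in these calls was not tested. The starts of Rps4x and Rpl36a are shown because these were the core genes with the fewest calls. Capitals mark the pyrimidine run as before.
Rps4x: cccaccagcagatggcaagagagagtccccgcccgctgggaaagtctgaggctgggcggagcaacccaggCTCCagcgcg
Rpl36a: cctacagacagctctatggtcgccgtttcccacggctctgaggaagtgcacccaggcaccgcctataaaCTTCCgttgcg
The runs are 4 and 5 bases long, shorter than the median of 7 over the core genes, and Rpl36a holds TATAAA after its start site, directly before the capitals.

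The 10 members with no call of either mark were 4 paralogs and all 6 copies with a -ps symbol. Among the paralogs, Rpl3l is the form of Rpl3 in heart and skeletal muscle, Rpl10l replaces Rpl10 in male germ cells of the mouse, Rpl39l is the testis form of Rpl39, and Rps27rt is a retrotransposed copy of Rps27. The other 4 paralogs (Rpl7l1, Rpl22l1, Rpl36al and Rps27l) were called in all 8 libraries. Rpl22l1, the partner of Rpl22, had H3K27ac peaks of 1200 and 1600 bp in ERY and 1200 and 1600 bp in iMK. Rps27l, a target of p53, had 1800 and 2200 bp in ERY and 1600 and 1800 bp in iMK. Rpl36al had 3000 and 2800 bp in ERY and 2800 and 3200 bp in iMK, and Rpl7l1 2000 and 2400 bp in ERY and 2000 and 1400 bp in iMK. The widths overlapped between the cell types at Rpl22l1 and Rpl36al, and touched at 1800 bp at Rps27l and at 2000 bp at Rpl7l1.

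From the main start site of the uncalled members, the nearest peak of any library lay 2.22 kb (Rpl9-ps6) to 196 kb (Rpl39l) away. That of Rpl3l was at 2.82 kb, and Rpl3l starts 7.76 kb from the core gene Rps2. Peaks came within 2.38 kb of Rpl9-ps1, in iMK, and within 2.94 kb of Rps27rt, in iMK replicate 2. The remaining ones lay at 5.49 kb (Rps12-ps3), 8.17 kb (Rpl10-ps3), 46.3 kb (Rpl36a-ps1), 50.4 kb (Rpl36-ps4) and 167 kb (Rpl10l). A list holds only peaks past the authors' limit, so no call does not show that a mark is absent. The general methods of the study state that reads with several matches were kept. Those methods name MACS, whereas the submitters' notes name SICER, so whether such reads were kept for these lists is not known. Peaks at near-identical copies are thus uncertain. The starts of the 3 paralogs whose tissue form is named above are shown for comparison with those of the called genes, with the pyrimidine run in capitals.
Rpl3l: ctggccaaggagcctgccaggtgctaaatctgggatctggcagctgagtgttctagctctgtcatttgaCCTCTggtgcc
Rpl10l: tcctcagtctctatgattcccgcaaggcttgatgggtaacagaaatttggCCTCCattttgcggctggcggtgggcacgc
Rpl39l: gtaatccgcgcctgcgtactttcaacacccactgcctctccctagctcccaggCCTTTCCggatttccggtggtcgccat
Rps27rt shares part of its sequence with Rps27 but not the sequence before it. Here the window is 50 bases before and 30 from the start on, and capitals mark what it holds (29 and 30 bases) of the 38 bases in a row that both share.
Rps27: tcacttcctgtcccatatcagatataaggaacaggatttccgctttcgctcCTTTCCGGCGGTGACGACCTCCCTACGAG
Rps27rt: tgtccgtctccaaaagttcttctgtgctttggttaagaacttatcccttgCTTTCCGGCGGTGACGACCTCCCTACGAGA
The shared run begins at base 2 of Rps27 and at base 1 of Rps27rt, counted from the start site. Of the 100 bases before it, 21 (21%) were the same letter in both. Rps27 carried both marks in all 8 libraries, with H3K27ac of 2200 and 2400 bp in ERY and 1200 and 2200 bp in iMK, whereas Rps27rt was called in none.

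Peak width, the length of the widest peak that touched a promoter, was used as the graded measure. H3K27ac peaks of the members had a median width of 2800 bp in both ERY libraries and of 2000 and 2400 bp in the iMK libraries. Over all called genes the medians were 2800 and 2600 bp in ERY and 1800 and 2000 bp in iMK. The members varied less: the middle 50% of widths spanned 1200 bp in both ERY libraries and 800 and 1000 bp in iMK, against 2800 bp in both ERY libraries and 1200 and 1600 bp in iMK over all genes. H3K4me3 medians of the members were 1800 and 1200 bp in ERY and 1400 and 2800 bp in iMK, against 1800 and 1400 bp and 1400 and 2600 bp over all genes. In enrichment, the fold over control that the authors deposited, the median H3K27ac peak of the members stood at percentile 75.9 and 61.1 of all peaks of its library in ERY and 77 and 81.6 in iMK, and that of all called genes at percentile 78.7 and 71.8 in ERY and 76.4 and 75.8 in iMK.

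**Figure D2:**
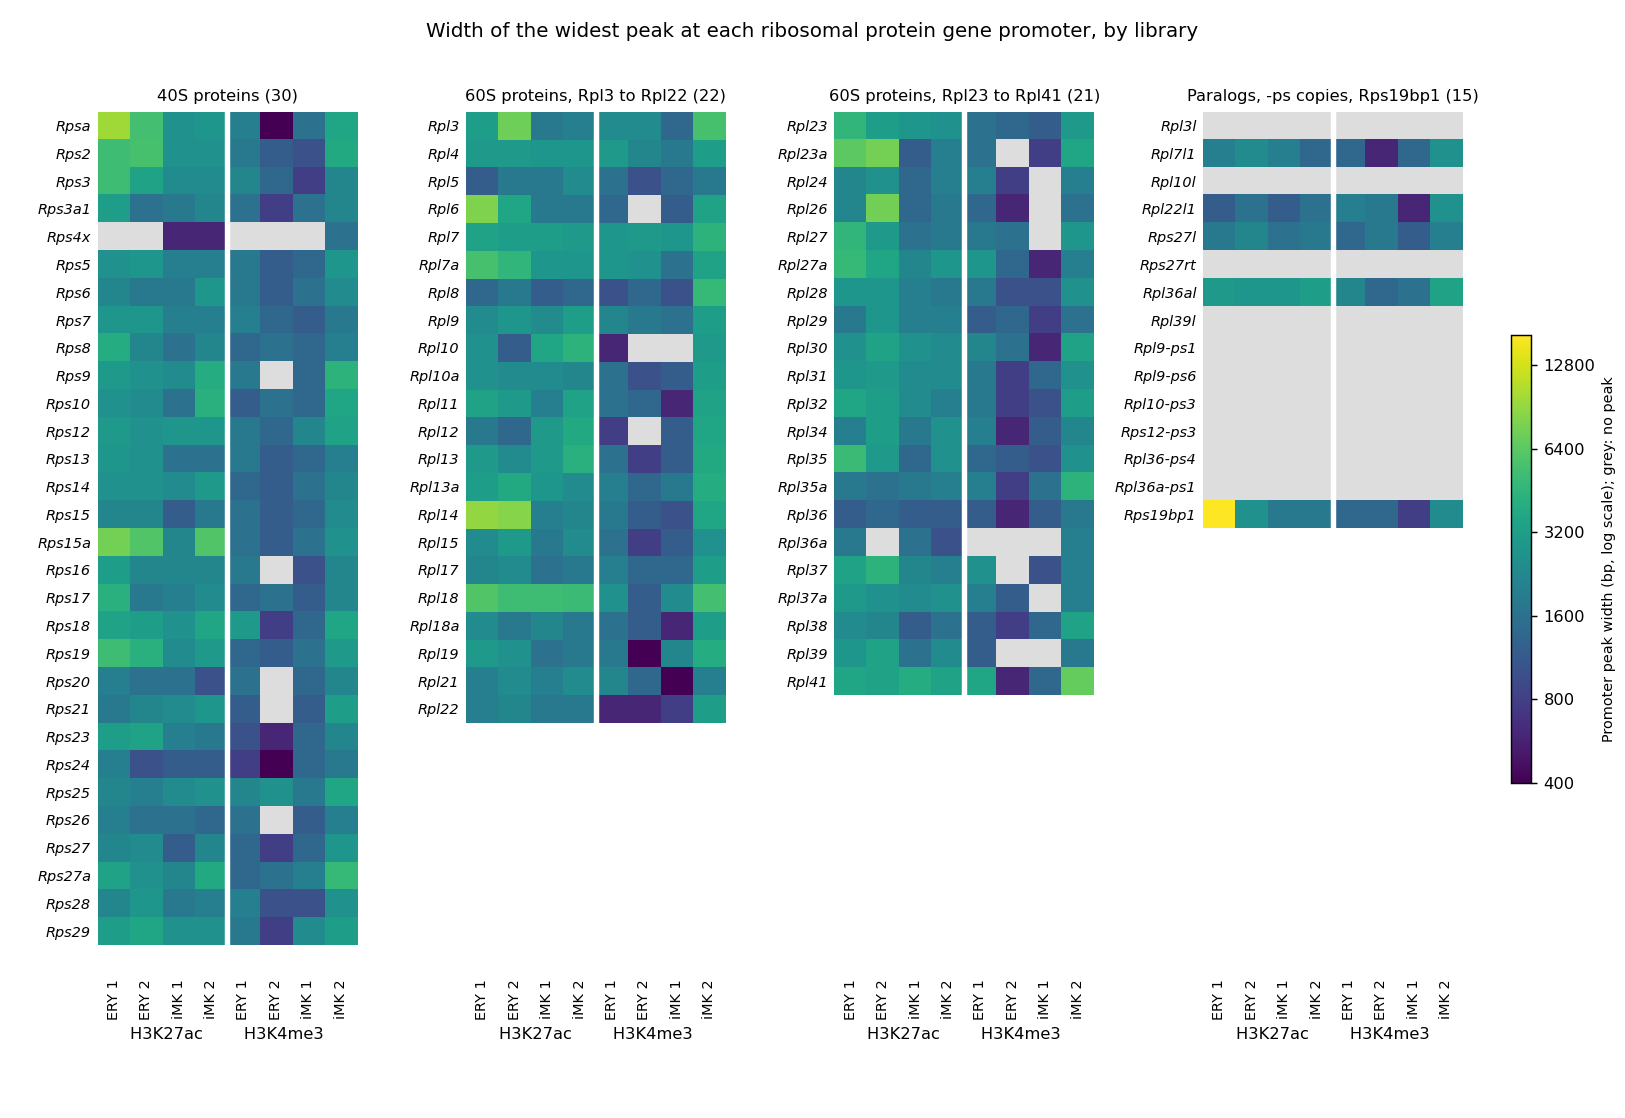
Width of the widest peak touching each member's promoter (colour, bp on a log scale; grey, no peak) in the 8 libraries (columns) for the 40S genes, the 60S genes and the 15 other members (rows; 1 member is not drawn). H3K4me3 columns of iMK replicate 2 are wide and those of ERY replicate 2 narrow or grey over most genes, and 10 rows are grey throughout.

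Among members called in all 4 libraries of a mark, the widest H3K27ac peaks by the mean of the 4 were at Rps19bp1 (5650 bp), Rps15a (5450 bp), Rpl14 (5400 bp), Rpl18 (5350 bp) and Rpsa (5100 bp). Rps19bp1 owed its place to 1 library, with 16400 and 2600 bp in ERY and 1800 bp in both iMK libraries, and that long peak also reached the start of Atf4. Rps15a had 7600 and 6000 bp in ERY and 2200 and 6000 bp in iMK, and Rpsa, a 40S protein also named as a laminin receptor, had 9600 and 5400 bp in ERY and 2600 and 2800 bp in iMK. Rpl18 was wide in every library, with 6000 and 5200 bp in ERY and 5200 and 5000 bp in iMK, in peaks that also held the start of Sphk2. The narrowest of these members were Rpl36 (1250 bp), Rps24 (1350 bp), Rpl22l1 (1400 bp), Rpl8 (1450 bp) and Rps20 (1550 bp), of which Rps24 is one of the Diamond-Blackfan genes, with its widest iMK replicate 2 peak at the start of Polr3a. Rpl36 had 1200 and 1400 bp in ERY and 1200 bp in both iMK libraries. For H3K4me3, again among members called in all 4 libraries, the widest were Rpl7 (3250 bp), Rpl41 (3100 bp), Rpl3 (2950 bp), Rpl18 (2900 bp) and Rpl7a (2600 bp), and the narrowest Rps24 (1100 bp), Rpl36 (1200 bp), Rpl29 (1250 bp), Rps23 (1300 bp) and Rpl22 (1300 bp). The widest H3K4me3 peaks of Rpl18 in both ERY libraries and in iMK replicate 1 did not reach within 1 kb of its main start site, where ERY replicate 1 had a separate peak of 600 bp. Rpl3, which shapes the peptidyl transferase centre, had 2400 bp in both ERY libraries and 1400 and 5600 bp in iMK. Rps24 and Rpl36 stood among the narrowest of both marks and Rpl18 among the widest of both.

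Widths of the core genes were ordered alike within a cell type for H3K27ac, with a Spearman rho of 0.68 between the ERY libraries (72 genes) and 0.71 between the iMK libraries (74 genes). Between cell types rho was 0.23 to 0.40. Over all genes called in both, rho was 0.85 within ERY, 0.80 within iMK and 0.38 between cell types. For H3K4me3 rho over core genes was 0.28 within ERY, 0.28 within iMK and 0.05 to 0.19 between them, against 0.61 within ERY, 0.47 within iMK and 0.32 to 0.46 between them over all genes. These are descriptions across genes, whose points share 2 libraries.

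The core genes were short, and much of their bodies lay under peaks. The core genes had a median length of 3266 bp (828 to 31449 bp) and 5 exons, and 58 of 74 (78.4%) were under 5000 bp, against a median of 17425 bp and 18.9% over all genes. In called core genes a median of 63.7% and 61.6% of the body lay under H3K27ac peaks in ERY and 39.8% and 42.7% in iMK, against 13.8% and 11.9% in ERY and 7.18% and 8.2% in iMK over all genes. For H3K4me3 it was 36.5% and 23.7% in ERY and 26.8% and 55.1% in iMK. Over all genes it was 5.11% and 4.05% in ERY and 3.76% and 7.04% in iMK. H3K27ac peaks at the main start site reached a median of 776 and 862 bp upstream and 1792 and 1852 bp downstream in ERY, and 676 and 814 bp upstream and 1211 and 1417 bp downstream in iMK. Over all genes the downstream reach was 1482 and 1457 bp in ERY and 1046 and 1138 bp in iMK. The upstream reach over all genes was 1025 and 998 bp in ERY and 740 and 820 bp in iMK, longer than in the core genes. A peak covered the main start at 69 and 66 core genes in ERY and at 73 and 71 in iMK. Of these core genes, the downstream side was the longer in 84.1% and 86.4% in ERY and 78.1% and 76.1% in iMK. Over all genes with such a peak it was the longer in 67.6% and 68.1% in ERY and 70.3% and 70% in iMK. Mitochondrial ribosomal protein genes, whose median length was 7900 bp, reached 1061 and 984 bp downstream in ERY and 826 and 888 bp in iMK. The difference between the lists was not tested.

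**Figure D3:**
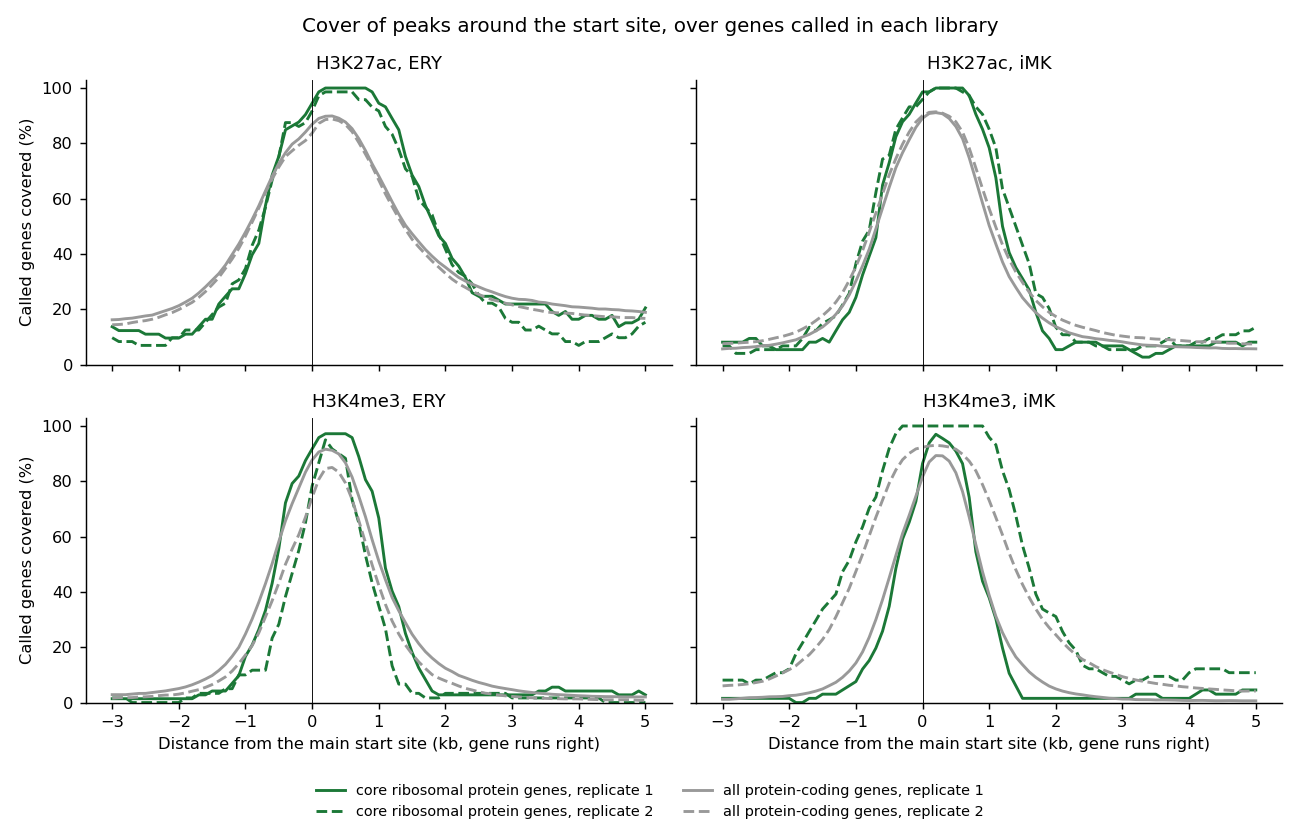
Share of called genes covered by a peak (vertical axis, %) by distance from the main start site (horizontal axis, kb, the gene running to the right), for core ribosomal protein genes (green) and all protein-coding genes (grey), replicates 1 (solid) and 2 (dashed). The H3K27ac curve of the core genes in ERY extends further to the right of the start than to the left, with median reaches of 1792 and 1852 bp downstream and 776 and 862 bp upstream.

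Small nucleolar RNAs (snoRNAs), which guide the modification of ribosomal RNA, lie in introns of 29 of the 74 core genes (39.2%, against 1.18% of all genes), 57 of them in all. The snoRNA hosts had H3K27ac peaks with medians of 3200 and 3000 bp in ERY and 2200 and 2400 bp in iMK. The 45 other core genes had medians of 2600 and 2800 bp in ERY and 2000 and 2200 bp in iMK, and their middle ranges overlapped those of the hosts in every library. Another gene's start lay in the promoter peak of 23% to 26.4% of called core genes for H3K27ac. The median of such peaks was 3200 and 3000 bp in ERY and 2400 and 2800 bp in iMK, against 2800 and 2600 bp in ERY and 2000 and 2200 bp in iMK for the rest.

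In ERY, H3K27ac was broader than H3K4me3 at most genes, the core genes among them. Where all 4 ERY libraries made a call, both H3K27ac peaks were wider than both H3K4me3 peaks at 49 of 60 core genes (81.7%), against 74.2% of all genes. In iMK this held for 5 of 66 (7.58%), against 7.76% of all genes. The marks have different antibodies and lists, so these counts were not tested.

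Whether the marks were broader in 1 cell type was tested on log2 width with a moderated test in limma that lets the variance follow the mean width, in genes called in all 4 libraries of a mark, with Benjamini-Hochberg adjustment over all genes tested. For H3K27ac, 77 members were among the 7897 genes tested, and 6 members were wider in ERY and none in iMK. Over all genes tested 1458 were wider in ERY (18.5%) and 205 in iMK (2.6%), so the share of members wider in ERY was below the background. At an unadjusted p under 0.05 there were 21 members and 3130 genes in all. Differences of 60 members were above 0 and of 17 below it, with a median of 0.29 on the log2 scale (a ratio of 1.22), against 0.39 (1.31) over all genes. Both ERY widths exceeded both iMK widths at 34 members (44.2%, against 49.2% of all genes) and the opposite held at 4 (5.19%, against 13.1% of all genes).

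**Figure D4:**
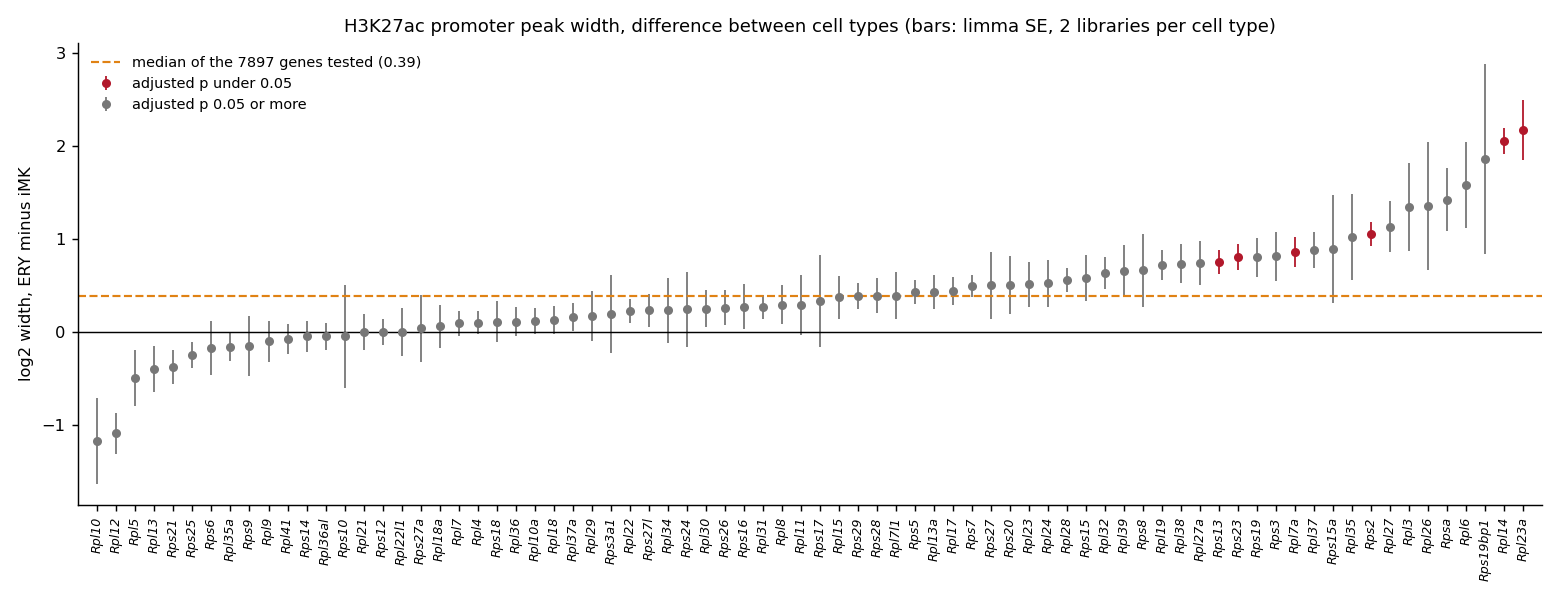
Difference in log2 H3K27ac width, ERY minus iMK, for members called in all 4 libraries (points; bars, limma standard error; 1 of the 77 is not drawn), with the median of all genes tested (dashed line, 0.39). The 6 members past the threshold, in red, lie between 0.75 and 2.17, and the members spread on both sides of the dashed line.

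Rpl14, a 60S protein, had H3K27ac peaks of 9000 and 8400 bp in ERY, against 2000 and 2200 bp in iMK, a difference of 2.05 ± 0.14 on the log2 scale (limma, SE, adjusted p = 0.0147). The ERY peaks ran upstream of the gene, on chromosome 9 from 120564801 to 120573800 in replicate 1, and held no other protein-coding start. In iMK replicate 1 the peak ran from 120570201 to 120572200. Rpl23a, a 60S protein at the mouth of the exit tunnel, had 6400 and 7600 bp in ERY, against 1200 and 2000 bp in iMK (2.17 ± 0.32, adjusted p = 0.032). Those ERY peaks did not lie at the main start site but downstream, over the starts of Nek8 and Tlcd1. They came within 1 kb of another annotated Rpl23a start but did not reach it. At the main start the widths were 2200 and 2000 bp in ERY and 1200 and 2000 bp in iMK, and the difference was 0.44 (adjusted p = 0.375).

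Rps2, a 40S protein near the entry of the mRNA channel, had 5200 and 5600 bp in ERY, against 2600 bp in both iMK libraries (1.05 ± 0.13, limma adjusted p = 0.024). The ERY peaks held the starts of both Rps2 and Ndufb10. The iMK widths belong to separate peaks, since that of replicate 1 lay beyond the end of Rps2 at the start of Ndufb10 and that of replicate 2 at the main start of Rps2. At the main start the iMK peaks spanned 2000 and 2600 bp and the difference was 1.24 ± 0.19 (limma adjusted p = 0.039). Rpl7a had 5600 and 4600 bp in ERY, against 2800 bp in both iMK libraries (0.86 ± 0.16, adjusted p = 0.0478), in peaks that held the start of its neighbour Med22 in every library. Rps23, a protein of the decoding centre, had 3200 and 3400 bp in ERY, against 2000 and 1800 bp in iMK (0.80 ± 0.14, adjusted p = 0.0403). Rps13 had 2800 and 2600 bp in ERY, against 1600 bp in both iMK libraries (0.75 ± 0.13, adjusted p = 0.0389). The groups did not overlap at any of these 6 genes, which were picked by a test on the same widths. Both ERY widths exceeded both iMK widths at 49.2% of all genes tested. For H3K4me3 none of the 5398 genes tested passed, and so none of the 5 of these that could be tested (Rpl23a was not called in all 4 libraries).

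**Figure D5:**
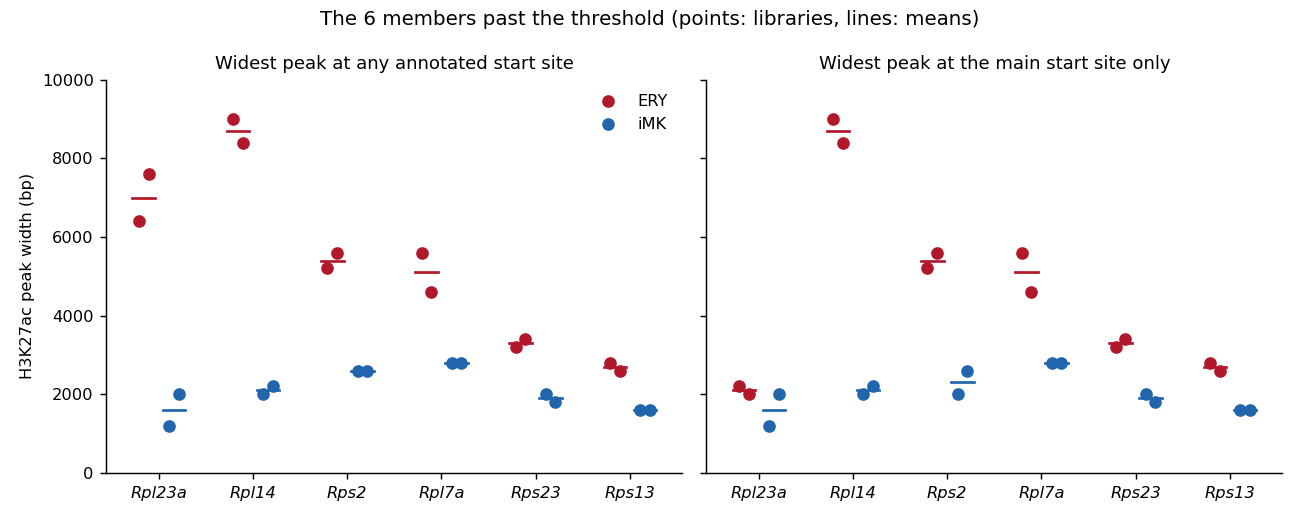
H3K27ac peak width (bp) in each library (points; lines, means of 2) at the 6 members past the threshold, ERY left of iMK, for the widest peak at any start site (left) and at the main start site (right). The 6400 and 7600 bp peaks of Rpl23a in ERY are absent from the right panel, where its groups touch at 2000 bp. The other 5 stay apart there, in genes that were picked by the widths of the left panel.

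These calls had adjusted p of 0.0147 to 0.0478. With any 1 of the 4 libraries left out, no member and none of all genes passed. At main start sites only, 4 members passed (Rps13, Rps23, Rps2 and Rpl14, of a background of 15.4% wider in ERY), and Rpl7a had an adjusted p of 0.0524. ERY widths were larger over the genome, and with each library set to the same median, which moved the median of all genes to 0.02 and that of the members to -0.07, 3 members were wider in ERY (Rpl14 by 1.69, Rpl23a and Rpsa) and 2 in iMK (Rpl12 and Rpl10). The calls over all genes were then 1292 in ERY (16.4%) and 658 in iMK (8.33%). With quantile scaling they were 714 in ERY (9.04%) and 519 in iMK (6.57%), with Rpl14 and Rpl23a wider in ERY and Rpl12 and Rpl10 in iMK among the members. Rpl12, part of the base of the ribosomal stalk, was chosen with its values in view. Its peaks spanned 1800 and 1400 bp in ERY, against 3000 and 3800 bp in iMK, an unscaled difference of -1.09 ± 0.22 (limma adjusted p = 0.0548), in peaks that also held the start of Lrsam1. Rpl10 had an unscaled difference of -1.17 ± 0.46 (adjusted p = 0.161).

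Other genes chosen for their known roles did not pass the test in H3K27ac width. Rpl5 and Rpl11, which bind 5S RNA and the p53 regulator Mdm2, had differences of -0.50 ± 0.30 and 0.29 ± 0.32 (limma, adjusted p = 0.302 and 0.549). The widest Rpl11 peak lay at its main start only in iMK replicate 1, so its difference compares unlike peaks. At the main start of Rpl11 the difference was 0.33 ± 0.24 (limma adjusted p = 0.381). Rps19, the gene most often mutated in Diamond-Blackfan anaemia, had 5200 and 4200 bp in ERY, against 2400 and 3000 bp in iMK, with a difference of 0.80 ± 0.21 (adjusted p = 0.0834). Rps14, the gene behind the anaemia of the human 5q- syndrome, had 2600 bp in both ERY libraries, against 2400 and 3000 bp in iMK (-0.05 ± 0.17, adjusted p = 0.861). Rpl38, needed in the mouse for translation of Hox mRNAs, had 2400 and 2200 bp in ERY, against 1200 and 1600 bp in iMK (0.73 ± 0.21, adjusted p = 0.0948). Rpl22, known for its role in T cell development, had 2000 and 2200 bp in ERY, against 1800 bp in both iMK libraries (0.22 ± 0.13, adjusted p = 0.3). Rps6, Rps24, Rpl35a, Rpl10a, Rpl13a and Rps26 had differences between -0.17 and 0.43, with adjusted p of 0.175 to 0.702. Of the 19 mouse counterparts of human Diamond-Blackfan anaemia genes, all 19 were shared for H3K27ac (36% of all genes) and 16 for H3K4me3 (24.6%). None passed the H3K27ac width test, where 18.5% of all genes tested were wider in ERY and 2.6% in iMK. At an unadjusted p under 0.05 there were 3, against 3130 of 7897 genes in all. Their median difference was 0.37, against 0.39 over all genes. With a window of 2.5 kb, Rps26 (2.10 ± 0.15, limma adjusted p = 0.0137) and Rpl26 (2.22 ± 0.19, adjusted p = 0.0143) were wider in ERY. So were 19.5% of all genes tested at that window, which takes in peaks further from the start. Within 1 kb of the main start the differences were 0.26 ± 0.19 at Rps26 (limma adjusted p = 0.383) and 1.35 ± 0.70 at Rpl26 (adjusted p = 0.254).

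For H3K4me3, none of the 5398 genes tested was wider in ERY (0%) or in iMK (0%) by limma, and so none of the 61 members. At an unadjusted p under 0.05 there were 109 genes, 1 of them a member (Rpl19, wider in iMK by the fit, -1.81). The median difference of the members was -0.42, against -0.29 over all genes, and it moved with the library left out. It was -0.69 in the members and -0.51 over all genes without ERY replicate 1, and -0.20 and -0.08 without ERY replicate 2. Without iMK replicate 1 it was -1.0 in the members and -0.76 over all genes, and without iMK replicate 2, the library with the most peaks, 0.07 and 0.19. Both iMK widths exceeded both ERY widths at 10 members (16.4%, against 14.1% of all genes) and the opposite held at 0 (2.78% of all genes). Rps19, for example, had 1400 and 1200 bp in ERY and 1600 and 3000 bp in iMK, and Rps27a, which encodes a fusion of ubiquitin and a 40S protein, had 1400 and 1600 bp in ERY and 2000 and 4800 bp in iMK. In both the iMK replicates were further apart than the groups.

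The percent of each locus, the gene body and 10 kb on each side, that lay under peaks was tested in the same way in genes with cover in at least 1 library. For H3K27ac, 84 members were among 14467 genes tested. Of these, 16 were covered more in ERY (22% of all genes tested) and 5 more in iMK (17.2% of all genes tested). The largest differences were at Rpl6, with 67.7% and 61.2% in ERY, against 7.27% and 13.7% in iMK (54.0 ± 4.19 percentage points, limma, SE, adjusted p = 0.00816), and at Rpl3, with 54.2% and 67.7% in ERY, against 17% and 10.6% in iMK (47.2 ± 6.29, adjusted p = 0.0182). Rpsa had 56.4% and 49.9% in ERY, against 17.5% and 22.3% in iMK. Rps26, a Diamond-Blackfan gene whose promoter peaks differed little, had 39.4% and 36.9% in ERY, against 7.20% and 6.30% in iMK (31.4 ± 1.87, adjusted p = 0.00651). Rpl26, another such gene, had 37.8% and 37.0% in ERY, against 5.51% and 7.08% in iMK (31.1 ± 1.67, adjusted p = 0.0065). Rpl14, Rpl23a, Rps19bp1, Rps15a, Rps3, Rpl27, Rps7, Rps12 and Rps13 were also covered more in ERY, by 4.85 to 30.7 percentage points.

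The loci with more cover in iMK were those of Rps4x, with 0% in both ERY libraries and 2.45% in both iMK libraries, and of Rpl18, with 23.6% and 20.5% in ERY and 35.2% and 39.2% in iMK. The others were of uncalled copies. Rpl9-ps1 had 0% in both ERY libraries and 32.2% and 33.0% in iMK, Rpl10-ps3 0% in both ERY libraries and 7.70% and 9.63% in iMK, and Rpl3l 29.7% and 31.1% in ERY and 44.5% and 45.2% in iMK. Rpl9-ps6, with 31.8% and 37.5% in ERY, and Rps12-ps3, with 24.3% and 14.6% in ERY, were listed at 0% in both iMK libraries. Rps4x, Rpl9-ps1, Rpl10-ps3, Rpl9-ps6 and Rps12-ps3 entered the test only through the cell type with cover. The cell type at 0% in both libraries shows no spread, so these calls are no independent support for a difference. A locus takes in neighbours, so these percentages are not those of the gene itself. With quantile scaling the counts of members were 7 of 84 in ERY (23.2% of all genes) and 19 of 84 in iMK (21.6% of all genes). With 1 library left out they were 3 (without either iMK library) to 12 in ERY, where 6.44% to 22.8% of all genes were called, and 2 (without ERY replicate 1) to 5 in iMK, where 5.24% to 22.8% were. The differences at Rpl18, Rps15a, Rps12 and Rpl27 changed sign under 1 alternative each. For H3K4me3, none of 13561 genes tested was covered more in ERY (0%) or iMK (0%) by limma, with 482 genes and 0 of 82 members at an unadjusted p under 0.05. Without iMK replicate 1, whose list is the shorter of the pair, 9 of 81 members were covered more in iMK (30.4% of all genes), and without iMK replicate 2, 1 of 79 was (8.63% of all genes).

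Most other genes of translation were shared too. The 6 ribosomal protein genes left out by the symbol rule were shared in 6 of 6 for H3K27ac and 5 of 6 for H3K4me3. For H3K27ac, 6 of 7 elongation factor genes, 27 of 28 initiation factor genes, 29 of 34 ribosome biogenesis genes and 75 of 78 mitochondrial ribosomal protein genes were shared. For H3K4me3, 5, 23, 19 and 46 of them were. Over all protein-coding genes 36% were shared for H3K27ac and 24.6% for H3K4me3. The H3K4me3 share was lowest in the biogenesis genes (55.9%, with 41.2% unreplicated) and the mitochondrial ribosomal protein genes (59%, with 41% unreplicated). In the H3K27ac width test, where 18.5% of all genes were wider in ERY and 2.6% in iMK, 1 of 6 elongation factor genes tested was wider in ERY and none in iMK. Of 27 initiation factor genes 9 were wider in ERY and 1 in iMK, of 29 biogenesis genes 3 in ERY and 0 in iMK, and of 75 mitochondrial ribosomal protein genes 8 in ERY and 1 in iMK.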

How the data were processed

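ChIP-seq peak lists of 8 libraries (2 for each of H3K4me3 and H3K27ac in ERY and in iMK) were used, and groups were read from the sample labels. The authors called peaks in each library on its own. For every peak the authors deposited an enrichment, the fold of ChIP signal over control, and a p-value with its q-value, all q-values being under 0.01. Tools named in the processing notes of the submitters, with no role stated, are SICER 1.1 and Bowtie 1.0.0, with build mm10, and the general methods of the study name Bowtie and MACS. Peak edges fell on steps of 200 bp, so widths have that grain.

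Promoters (1 kb on each side of every TSS) and loci (gene body with 10 kb on each side) came from GENCODE M21. Width was the log2 length of the widest promoter peak, so a long peak can belong in part to a neighbour, and library depth, which the lists do not hold, can change both calls and widths. Moderated tests used limma 3.58.1 in R 4.3.3, per mark, over all genes with enough values. The p-values were adjusted after Benjamini and Hochberg and called under 0.05. An exact permutation test of 2 against 2 libraries cannot go below a two-sided p of 0.333, so none was used. Lookups and fits were tested on simulated data. In simulated widths, a log2 difference of 1 was recovered in 7 of 100 genes for H3K27ac and in 2 of 100 for H3K4me3. A difference of 3 was recovered in 94 of 100 and 76 of 100. A gene that did not pass may therefore still differ in width.

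Named were the 12 members most often uncalled, up to 6 members per direction past the width threshold, the 5 widest and 5 narrowest per mark, and a list of genes by role. Members named outside these rules (the H3K4me3 calls missing in 1 library, Rpl12, Rpl39, Rps27a, the locus test) were chosen with values in view. A few genes are not reported here by name. The members, lists and tests were all chosen with earlier results of these data known. Alternatives changed the window, start site, q limit, list length, scaling, width measure, gene filter, locus and libraries, and those at main start sites only were added after seeing the data.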

Additional observations from a re-analysis of the deposited data

How the results depend on the processing

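No paired analysis was possible because the labels number no replicates across groups. Shared calls among the 89 members stayed between 73 and 78 for H3K27ac and between 51 and 62 for H3K4me3 over the alternatives that kept all libraries, and between 77 and 78 and between 61 and 71 with 1 library left out. The H3K27ac iMK-only count of 1 became 3 with a window of 2.5 kb (8.8% of all genes), 0 when the peak had to cover the start (8.43%) and 2 at the most upstream start (8.03%), where 1 member was ERY-only (1.95% of all genes). The H3K4me3 iMK-only count of 0 became 1 at q under 1e-06 (4.76% of all genes) and 2 with equal numbers of top peaks (4.26%), where 2 were ERY-only (2.48% of all genes). With 1 library left out, H3K27ac iMK-only counts were 1 to 2 (8.98% to 10.5% of all genes), H3K4me3 iMK-only counts 0 to 10 (4.92% to 14.9%) and H3K4me3 ERY-only counts 0 to 4 (0.424% to 4.03%).

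Members with wider H3K27ac in ERY and in iMK numbered 6 and 0 (18.5% and 2.6% of all genes). They numbered 3 and 2 with centred medians (16.4% and 8.33%), 2 and 2 with quantile scaling (9.04% and 6.57%), 8 and 1 with summed widths (20.7% and 2.91%) and 10 and 2 when genes called in 1 library or more entered (18.8% and 18.3%), and 0 and 0 with any 1 library left out (0% of all genes). With a window of 2.5 kb the counts were 7 and 0 (19.5% and 2.83% of all genes). Rpl14 passed in all 8 alternatives that kept the libraries. For locus coverage the counts of 16 and 5 became 9 and 1 in gene bodies (18.1% and 15.1% of all genes), 14 and 1 within 2.5 kb of the start (17.2% and 16.4%) and 7 and 19 with quantile scaling (23.2% and 21.6%), and with 1 library left out 3 to 12 (6.44% to 22.8%) and 2 to 5 (5.24% to 22.8%). The H3K4me3 count in iMK, 0, became 1 with quantile scaling (1.31% of all genes) and 0 to 9 with 1 library left out (0% to 30.4%). Differences that changed sign were those of Rpl18 (10 percentage points) and Rps15a (-22.63) within 2.5 kb of the start, Rps12 (-4.78) in the gene body and Rpl27 (-0.64) with quantile scaling. The cause of these changes was not tested, except that leaving out a library lowers the residual degrees of freedom. Peak lists carry no depth, so a missing call may be a mark under the limit of detection.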
